A study of Mus musculus with 4 samples.

Results

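The genes described here are 33 named genes of the ATF4 amino acid response and of the synthesis of serine, one-carbon units and other non-essential amino acids, chosen by gene name from a table of 53465 genes. All 33 stood in the table, and 31 passed the filter on low counts and were tested. Nupr1 and Vldlr did not pass it. RNA was sequenced from CD8+ T cells of mouse spleen that had been stimulated for 24 h with beads carrying antibodies to CD3 and CD28, a stand-in for antigen and costimulation. There were 2 libraries labelled PP2Cm knockout (KO) and 2 labelled wild type (WT), described as biological replicates. PP2Cm, the product of Ppm1k, is a phosphatase of mitochondria that switches on the dehydrogenase of branched-chain ketoacids and so promotes the breakdown of leucine, isoleucine and valine. The labels name no strain, age or sex, nor the cells that carry the deletion.

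The labels conflict. The genotype field and the title of each library name 1 genotype, and the description code, which is also the column code of the table, names the other. Libraries were grouped by title and genotype field, and every sign would turn if the codes were right. Ppm1k went against the genotype field: the libraries labelled KO held 157 and 206 counts of it, against 102 and 94 in those labelled WT. Its log2 fold change, labelled KO minus labelled WT, was 0.97 (SE 0.23) with an adjusted p of 0.186. It passed the threshold in 1 of 12 alternatives, without labelled WT replicate 1 (1.24, adjusted p = 0.0278 by edgeR). Over all of them the log2 fold change ran from 0.59 to 1.24 and the adjusted p from 0.0278 to 0.68. Counts per gene do not show whether a part of Ppm1k was missing.

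The libraries held 13394074 and 14199020 counts (labelled KO) and 12967251 and 17316284 counts (labelled WT). A count of 0 then allows at most 0.173 to 0.231 CPM (counts scaled to a common library total), a limit that covers counting error alone. Cd8a was high in every library, at 511 to 547 CPM, far above Cd4. The 11 genes of T cell and CD8 identity summed to 3245 and 3045 CPM in the libraries labelled KO, against 3678 and 3396 CPM in those labelled WT. Of these 11 genes, 6 were lower in both libraries labelled KO and 1 was higher. Among 7 lists of markers of further cell types, 3 had a lower sum under the KO label in both libraries. They were B cell markers (305 and 269 CPM in the libraries labelled KO, against 427 and 368 CPM in those labelled WT), erythroid and platelet markers (3.16 and 4.5 CPM in the libraries labelled KO, against 6.38 and 12.2 CPM in those labelled WT) and stromal and endothelial markers (18.4 and 20.1 CPM in the libraries labelled KO, against 38.0 and 32.4 CPM in those labelled WT). Most of the B cell sum was Ighm, and the other 9 B cell markers together had 18.8 and 12.1 CPM in the libraries labelled KO, against 20.5 and 23.5 CPM in those labelled WT. Pecam1 made up nearly all of the stromal and endothelial sum, at 18.0 and 18.6 CPM in the libraries labelled KO, against 37.0 and 30.7 CPM in those labelled WT, and the other 7 genes overlapped between labels. Single genes were lower in both libraries labelled KO in 3 of 10, 6 of 9 and 1 of 8 cases in these lists. Alas2, Cdh5, Col3a1 and Acta2 had no count in any library. The sums of the remaining lists overlapped between labels. Of 6 CD4 and regulatory T cell markers, 3 were higher in both libraries labelled KO and 1 was lower. Of 9 dendritic cell markers 2 were higher and 2 lower, and of 9 NK and gamma-delta T cell markers 1 was higher and 1 lower. Of 12 myeloid markers 0 were higher and 1 was lower. Over all genes tested, 21.5% were higher in both and 23.3% lower. The part of these cells in the results on the members was not tested, and in bulk RNA fewer cells of a type and less RNA per cell cannot be told apart.

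ATF4 is a transcription factor whose mRNA is translated better when the initiation factor eIF2 is phosphorylated on its alpha subunit, as happens when the kinase GCN2 senses uncharged tRNA or the kinase PERK senses stress in the endoplasmic reticulum. ATF4 then raises genes that make and import amino acids, along with genes that feed back on the response. Activated T cells also use this set to make serine and glycine, whose carbon enters the folate cycle and supplies nucleotide synthesis, and both mTORC1 and MYC are known to raise parts of it.

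Asns and Ddit4 fell in the libraries labelled KO, and the other members did not pass the threshold. Asns encodes asparagine synthetase, which makes asparagine from aspartate and glutamine. Ddit4 encodes REDD1, which stress induces and which restrains mTORC1. Thus 2 of 31 tested members, or 6.45%, were called lower and 0 were called higher by edgeR with an adjusted p under 0.05, where 0.103% of all 13528 genes tested were called lower and 0.103% higher. At an unadjusted p under 0.05, 4 members were lower (12.9%, against 7.23% of all genes tested) and 1 was higher (3.23%, against 5.7%). DESeq2 called the same 2 lower, where it called 1.27% of all genes lower, and also Atf3 higher, where it called 0.633% higher. The members were chosen with earlier results of these data known, so these shares only describe the set.

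As a set, the members were divided in direction. Their median log2 fold change was 0.01, with 16 positive (51.6%, against 48.1% of all genes tested) and 15 negative (48.4%, against 51.9%), beside a median of −0.01 over all genes tested. Both libraries labelled KO lay below both labelled WT in 10 members (32.3%, against 23.3% of all genes tested) and above both in 7 (22.6%, against 21.5%). Labels stood apart in either direction in 44.9% of all genes tested. The spread between members was wide, from −1.26 for Asns to 0.75 for Atf3. The median itself was −0.15 without labelled KO replicate 1, and −0.12 and 0.12 without labelled WT replicate 1 and 2.

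**Figure D1:**
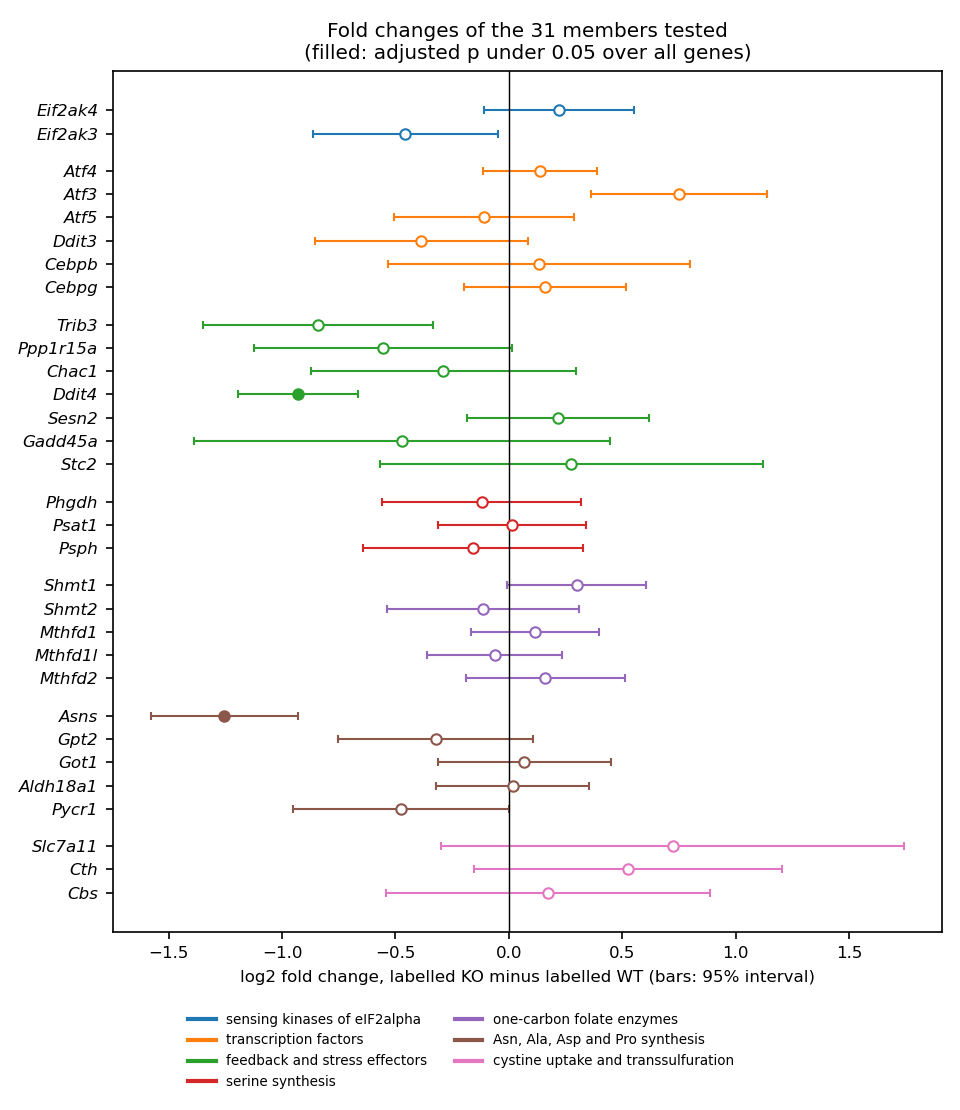
Log2 fold changes (x axis, labelled KO minus labelled WT) of the 31 members tested, with 95% intervals from edgeR, grouped and coloured by role; filled circles mark an adjusted p under 0.05. Asns (−1.26) and Ddit4 (−0.93) are filled, the serine and one-carbon enzymes lie between −0.16 and 0.30, and all 3 genes of cystine uptake and transsulfuration lie above 0 with intervals that include it.

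The kinases that phosphorylate eIF2 alpha pointed apart. Eif2ak4, which encodes GCN2, had 43.5 and 43.6 CPM in the libraries labelled KO, against 38.5 and 36.2 CPM in those labelled WT. Eif2ak3, which encodes PERK, had 29.2 and 33.3 CPM in the libraries labelled KO, against 47.6 and 38.3 CPM in those labelled WT. The libraries of the labels did not overlap for either gene, as for 44.9% of all genes tested. Eif2ak4 was higher and Eif2ak3 lower under the KO label. Neither passed: the log2 fold change was 0.22 (SE 0.14, adjusted p = 0.562 by edgeR) for Eif2ak4 and −0.46 (SE 0.17, adjusted p = 0.341 by edgeR) for Eif2ak3, whose 95% limits were −0.87 and −0.05.

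Among the transcription factors, Atf4 itself (ENSMUSG00000042406, chromosome 15, 80255184 to 80257540 in GRCm38) was nearly level. It had 466 and 434 CPM in the libraries labelled KO, against 407 and 411 CPM in those labelled WT, a log2 fold change of 0.14 (SE 0.11, 95% limits −0.12 and 0.39, adjusted p = 0.64 by edgeR). Atf4 was higher in both libraries labelled KO, as were 21.5% of all genes tested. Its mRNA does not report its translation, the step at which ATF4 is mainly controlled. Atf3 (ENSMUSG00000026628, chromosome 1, 191170296 to 191218039), a bZIP factor induced by many stresses and by mitogens, had 32.6 and 34.5 CPM in the libraries labelled KO, against 18.1 and 21.8 CPM in those labelled WT. The libraries of the labels stood apart, and the log2 fold change was 0.75 (SE 0.16, adjusted p = 0.154 by edgeR). DESeq2 put Atf3 past the threshold with an adjusted p of 0.0452, and over all alternatives its adjusted p ran from 0.0452 to 0.551.

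Ddit3, which encodes the stress factor CHOP, had 6.77 and 7.06 CPM in the libraries labelled KO, against 8.45 and 9.6 CPM in those labelled WT (log2 fold change −0.39, adjusted p = 0.473 by edgeR). It pointed the other way from Atf3. Atf5, a relative of ATF4 tied to mitochondrial stress, had 15.3 and 14.4 CPM in the libraries labelled KO, against 14.9 and 17.1 CPM in those labelled WT. The C/EBP partners of ATF4 overlapped between labels too: Cebpb had 19.2 and 11.6 CPM in the libraries labelled KO, against 11.7 and 16.3 CPM in those labelled WT. Cebpg had 51.9 and 63.3 CPM in the libraries labelled KO, against 52.8 and 50.3 CPM in those labelled WT. Nupr1, a small stress-induced chromatin protein, had 9 and 7 counts in the libraries labelled KO and 9 and 20 counts in those labelled WT, too few to be tested.

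Exons of Ddit3 overlap those of Mars on the opposite strand, those of Atf5 overlap Nup62, and those of Cebpb overlap Tmem189. The same holds for Psph and Cct6a and for Shmt1 and Smcr8. The labels do not say whether reads were counted by strand, so reads of these neighbours cannot be told apart from the members' own. On the same strand, Ddit3 shares exons with a second annotated gene of that name, for which no counts were available. Cebpg shares exons with Gm44836, which had 2 and 2 counts in the libraries labelled KO and 4 and 1 in those labelled WT. Strand would not separate these. Mars had 4789 and 4820 counts in the libraries labelled KO and 3926 and 6507 counts in those labelled WT, far above Ddit3. Cct6a had 10347 and 12362 counts in the libraries labelled KO and 8852 and 12283 counts in those labelled WT, far above Psph. In every library Nup62 and Tmem189 had more counts than Atf5 and Cebpb, and Smcr8 had fewer than Shmt1. No other annotated gene overlaps Asns, Ddit4 or Trib3 in GENCODE M21.

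Among the feedback and effector genes, Ddit4 was the 1 called. Of the 7 tested, 5 were negative (71.4%, against 51.9% of all genes tested), and the median log2 fold change of −0.47 was that of Gadd45a, a gene of few counts with 95% limits of −1.39 and 0.45. Ddit4 (ENSMUSG00000020108, chromosome 10, 59949669 to 59951834) had 89.1 and 95.3 CPM in the libraries labelled KO, against 167 and 184 CPM in those labelled WT. The higher library labelled KO lay far below the lower one labelled WT, and the fold was 1.91 lower (log2 fold change −0.93, SE 0.11, adjusted p = 0.0425 by edgeR). The call was lost without labelled KO replicate 1 (−0.88, adjusted p = 0.113) and without labelled KO replicate 2 (−0.97, adjusted p = 0.183). It was also lost in both fits on deposited FPKM (adjusted p = 0.0881 and 0.0911 by limma) and with the replicates blocked in crossed pairs (adjusted p = 0.0826 by edgeR). The log2 fold change itself stayed between −0.99 and −0.86 over all alternatives.

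Trib3 (ENSMUSG00000032715, chromosome 2, 152337422 to 152344032), a pseudokinase that binds ATF4 and CHOP and damps their activity, had 14.1 and 11.98 CPM in the libraries labelled KO, against 19.4 and 27.2 CPM in those labelled WT. Its log2 fold change was −0.84 (SE 0.21, 95% limits −1.35 and −0.33) with an adjusted p of 0.199 by edgeR. Without labelled WT replicate 1 it passed, at −1.06 with an adjusted p of 0.0246, and over all alternatives the adjusted p ran from 0.0246 to 0.697. Ppp1r15a, which encodes GADD34, the subunit that guides a phosphatase to eIF2 alpha and ends the response, had 35.6 and 21.5 CPM in the libraries labelled KO, against 41.7 and 42.1 CPM in those labelled WT. The libraries labelled WT were close to each other, while those labelled KO differed widely (log2 fold change −0.56, SE 0.24, adjusted p = 0.396 by edgeR). It was −0.23 without labelled KO replicate 2 and −0.96 without labelled KO replicate 1.

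Sesn2, a leucine-binding inhibitor of mTORC1 that also responds to ATF4, pointed the other way from Ddit4, without a call. It had 50.1 and 56.5 CPM in the libraries labelled KO, against 51.5 and 40.2 CPM in those labelled WT, a log2 fold change of 0.22 (95% limits −0.18 and 0.62). Chac1, which breaks down glutathione, had 5.04 and 4.08 CPM in the libraries labelled KO, against 5.92 and 5.24 CPM in those labelled WT (log2 fold change −0.29, adjusted p = 0.675 by edgeR). Gadd45a, a growth arrest gene, had 14 and 14 counts in the libraries labelled KO, against 19 and 23 counts in those labelled WT. Stc2, a secreted glycoprotein, had 5.11 and 9.0 CPM in the libraries labelled KO, against 7.3 and 4.47 CPM in those labelled WT, with wide overlap. Vldlr, a lipoprotein receptor, had 2 and 3 counts in the libraries labelled KO and 7 and 14 counts in those labelled WT, and was not tested.

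Serine synthesis from the glycolytic intermediate 3-phosphoglycerate was expressed at high levels under both labels, and no enzyme of it was called. Phgdh, the first and committing enzyme, had 372 and 290.3 CPM in the libraries labelled KO, against 304 and 415 CPM in those labelled WT. Psat1, the transaminase of the pathway, had 515 and 462 CPM in the libraries labelled KO, against 435 and 533 CPM in those labelled WT. Psph, the phosphatase that releases serine, had 86.8 and 76.8 CPM in the libraries labelled KO, against 72.0 and 110.4 CPM in those labelled WT. The labels overlapped in all 3. Both libraries labelled KO lay between those labelled WT for Psat1 and Psph, and labelled KO replicate 2 lay below both for Phgdh. The log2 fold changes were −0.12 for Phgdh (95% limits −0.56 and 0.32), 0.01 for Psat1 (95% limits −0.31 and 0.34) and −0.16 for Psph (95% limits −0.64 and 0.32). The limits leave room for moderate differences in either direction.

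**Figure D2:**
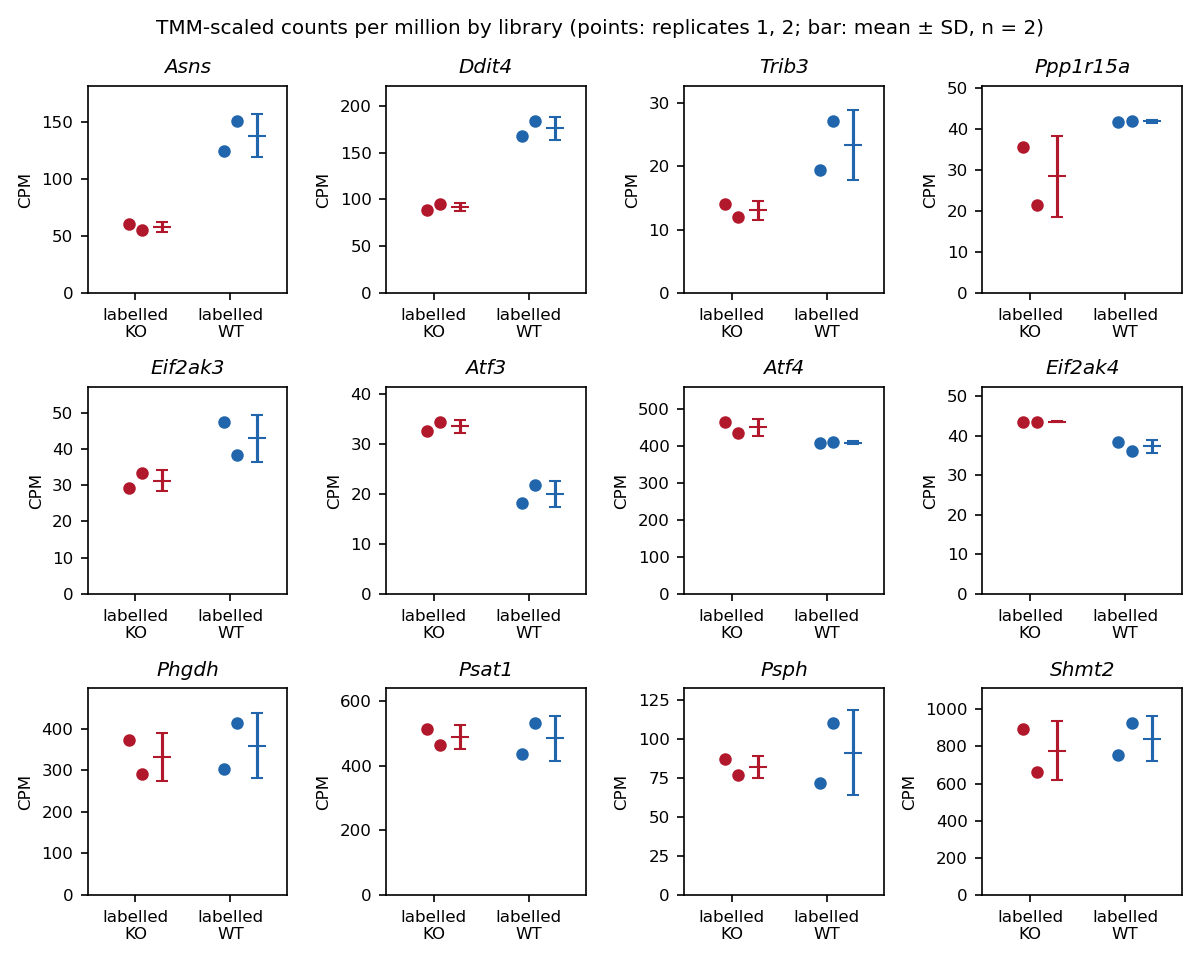
TMM-scaled CPM (y axes, from 0) of 12 members in each library, with points for replicates 1 and 2 and a bar for the mean ± SD (n = 2). Asns, Ddit4, Trib3, Ppp1r15a and Eif2ak3 are lower in both libraries labelled KO, and Atf3, Atf4 and Eif2ak4 are higher in both. The libraries of the labels overlap for Phgdh, Psat1, Psph and Shmt2.

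The folate enzymes that take 1 carbon from serine were likewise without a call. Shmt2, the mitochondrial enzyme that cleaves serine to glycine, had 891 and 664 CPM in the libraries labelled KO, against 755 and 929 CPM in those labelled WT (log2 fold change −0.11, 95% limits −0.54 and 0.31). Its cytosolic counterpart Shmt1 had 251 and 236 CPM in the libraries labelled KO, against 178 and 218 CPM in those labelled WT. Shmt1 was higher in both libraries labelled KO, by 0.30 on the log2 scale (SE 0.13, adjusted p = 0.396 by edgeR). In deposited FPKM, which divides by gene length, the ratio of Shmt1 to Shmt2 was 0.29 and 0.366 in the libraries labelled KO, against 0.242 and 0.242 in those labelled WT. This ratio was chosen after its values were seen, and with 2 against 2 libraries an exact two-sided permutation test cannot give a p under 0.333.

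Mthfd2, the mitochondrial dehydrogenase that is low in most adult tissues and high in dividing cells, had 294 and 273 CPM in the libraries labelled KO, against 219.5 and 287 CPM in those labelled WT. Mthfd1l, which releases formate from mitochondria, had 359 and 327 CPM in the libraries labelled KO, against 328 and 388 CPM in those labelled WT. Mthfd1, the cytosolic enzyme with 3 activities that takes the formate up, had 474 and 432 CPM in the libraries labelled KO, against 394 and 442 CPM in those labelled WT. In CPM the libraries of the labels overlapped for all 3, with log2 fold changes of 0.16, −0.06 and 0.11. In deposited FPKM Mthfd1 stood narrowly apart, at 87.3 and 81.5 in the libraries labelled KO, against 73.4 and 80.5 in those labelled WT.

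Asns was the 1 enzyme of amino acid synthesis that was called. Asns (ENSMUSG00000029752, chromosome 6, 7675169 to 7693254) had 809 and 796 counts in the libraries labelled KO, against 1629 and 2575 counts in those labelled WT. In CPM these were 60.8 and 55.1 in the libraries labelled KO, against 125 and 152 in those labelled WT, or 58.0 ± 4.05 CPM and 138 ± 18.7 CPM (SD, n = 2 each). It was 2.39-fold lower in the libraries labelled KO (log2 fold change −1.26, SE 0.14, adjusted p = 0.0352 by edgeR). The call was lost without labelled KO replicate 2, where the log2 fold change was −1.18 and the adjusted p 0.165, and in both fits on deposited FPKM (adjusted p = 0.0809 and 0.0763 by limma). Over all alternatives the log2 fold change ran from −1.38 to −1.11 and the adjusted p from 5.31e-10 to 0.165.

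Pycr1, which makes proline in mitochondria, was also lower under the KO label, with 7.44 and 6.23 CPM in the libraries labelled KO, against 9.6 and 9.42 CPM in those labelled WT (log2 fold change −0.48, SE 0.20, adjusted p = 0.387 by edgeR). Gpt2, the mitochondrial alanine transaminase, had 20.9 and 16.5 CPM in the libraries labelled KO, against 22.1 and 24.7 CPM in those labelled WT (log2 fold change −0.32, adjusted p = 0.511 by edgeR). Aldh18a1, which starts proline synthesis from glutamate, had 228 and 183 CPM in the libraries labelled KO, against 189 and 217 CPM in those labelled WT. Got1, the cytosolic aspartate transaminase, had 157 and 132 CPM in the libraries labelled KO, against 119 and 156 CPM in those labelled WT. The last 2 overlapped between labels, with log2 fold changes of 0.02 and 0.07.

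The genes of cystine uptake and cysteine synthesis from methionine had few counts and no call. In CPM all 3 were higher in both libraries labelled KO, as were 21.5% of all genes tested, but for Cbs by a margin too small to read. Cth, the last enzyme of transsulfuration, had 8.42 and 8.58 CPM in the libraries labelled KO, against 4.3 and 7.42 CPM in those labelled WT (log2 fold change 0.52, SE 0.29, adjusted p = 0.5 by edgeR). Cbs, the first enzyme of that route, had 3.16 and 2.56 CPM in the libraries labelled KO, against 2.54 and 2.53 CPM in those labelled WT. Its counts overlapped, with 42 and 37 in the libraries labelled KO and 33 and 43 in those labelled WT, and its log2 fold change of 0.17 was 0.016 without labelled KO replicate 1. Slc7a11, the light chain of the cystine and glutamate exchanger, had 15 and 17 counts in the libraries labelled KO and 8 and 13 counts in those labelled WT (log2 fold change 0.72, 95% limits −0.30 and 1.74). At so few counts its difference was not detectable.

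Levels between members were compared in deposited FPKM. Atf4 was the most abundant, at 268 and 256 FPKM in the libraries labelled KO, against 237 and 234 FPKM in those labelled WT, and its mean lay above that of 98.1% of the genes tested. Shmt2 (115 to 155 FPKM over the 4 libraries) and Phgdh (103 to 142 FPKM) came next. Their ranges overlapped, but Shmt2 was above Phgdh within each library. Mthfd1 (73.4 to 87.3 FPKM), Ddit4 (50.4 to 103 FPKM), Psat1 (62.8 to 75.2 FPKM) and Mthfd1l (58.5 to 67.4 FPKM) followed. The range of each overlapped that of its neighbour in that order, though Psat1 was above Mthfd1l within each library. Psph, at 11.2 to 16.9 FPKM, was the lowest of the serine enzymes by far. The sensing kinases Eif2ak4 and Eif2ak3 stood at 4.08 to 5.09 and 3.65 to 6.01 FPKM, and the feedback genes Trib3 and Ppp1r15a at 3.84 to 8.42 and 3.96 to 7.57 FPKM. Slc7a11, Vldlr, Nupr1, Gadd45a, Cbs and Stc2 were each under 1 FPKM in every library.

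**Figure D3:**
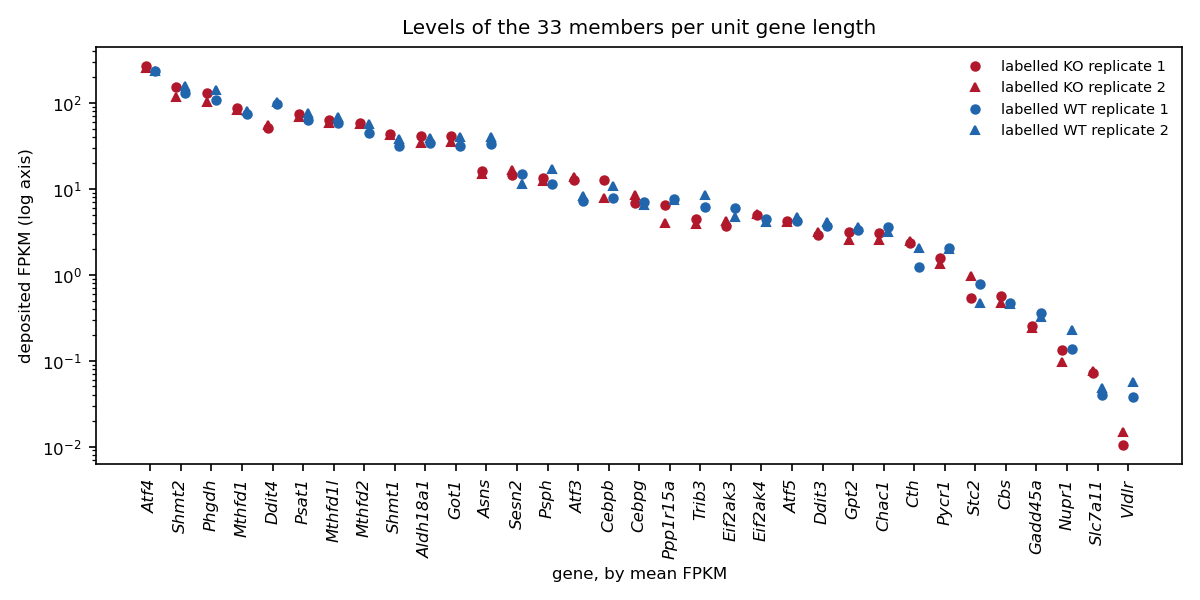
Deposited FPKM (y axis, log scale) of the 33 members in each of the 4 libraries, ordered by their mean. Atf4, Shmt2 and Phgdh are the most abundant, with means of 249, 138 and 120.1 FPKM, and for Asns and Ddit4 both points labelled KO lie below both labelled WT.

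The metabolic enzymes varied together between libraries in a way that the labels do not name. Labelled KO replicate 1 was above labelled KO replicate 2, and labelled WT replicate 2 above labelled WT replicate 1, in 11 of the 12 enzymes of serine, one-carbon, alanine, aspartate and proline synthesis other than Asns. The exception was Pycr1. The same order of libraries was found in 30.4% of all genes tested and in 5 of the 18 other members. The ratio of labelled KO replicate 1 to 2 had a median of 1.16 over the 12 enzymes, beside 0.998 over all genes tested, and that of labelled WT replicate 2 to 1 a median of 1.23, also beside 0.998. It was largest for Shmt2 in the pair labelled KO (1.34) and for Psph in the pair labelled WT (1.53). This pattern was noticed in the data, and enzymes of 1 library are not independent. The library with the higher enzymes held fewer counts in the pair labelled KO and more counts in the pair labelled WT, and the part of depth was not tested.

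**Figure D4:**
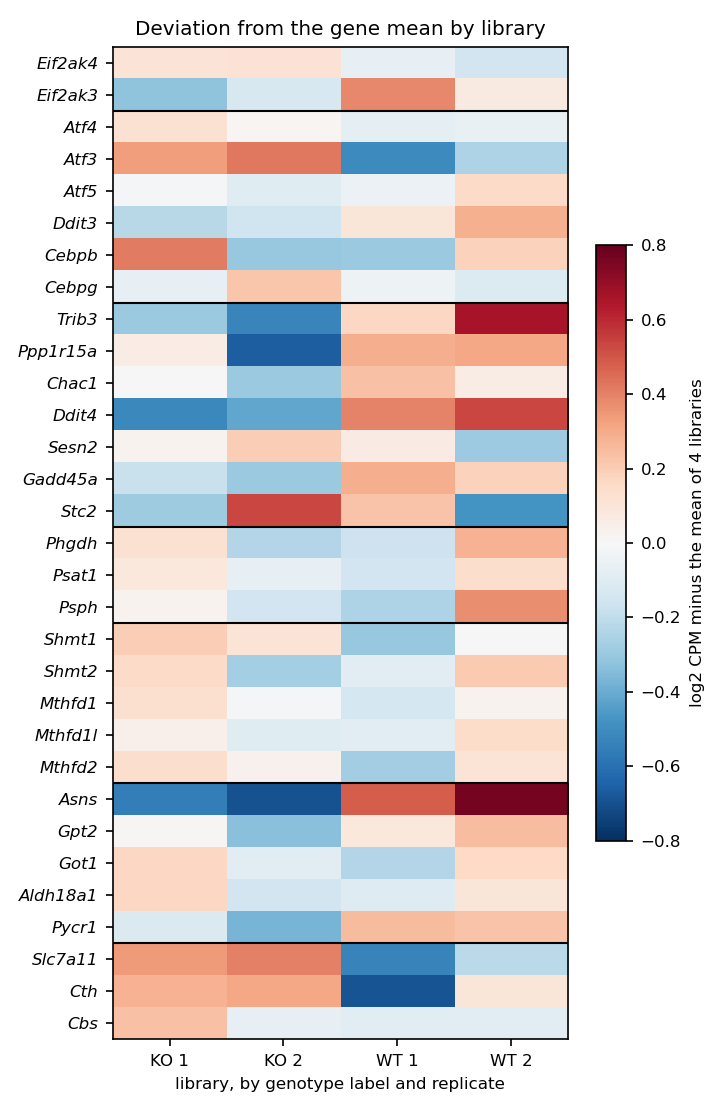
Deviation of log2 CPM from the mean of the 4 libraries (colour) for the 31 members tested (rows, split by role) in each library (columns). Ddit4, Trib3 and Asns are blue in both libraries labelled KO and red in both labelled WT, whereas most serine and one-carbon enzymes are redder in labelled KO replicate 1 and labelled WT replicate 2 than in the other library of their label.

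Asns shared that order of libraries but also fell with the label, so its level was set against that of other enzymes within each library, a choice made after the values were seen. The FPKM of Asns over that of Psat1 was 0.219 and 0.221 in the libraries labelled KO, against 0.534 and 0.527 in those labelled WT. Replicates of a label differed by far less than the labels did. Over Phgdh the ratio was 0.125 and 0.145 in the libraries labelled KO, against 0.314 and 0.279 in those labelled WT. The ratio of Phgdh to Psat1 itself overlapped, with 1.75 and 1.52 in the libraries labelled KO and 1.70 and 1.89 in those labelled WT. The FPKM of Asns over that of Atf4 was 0.0600 and 0.0584 in the libraries labelled KO, against 0.141 and 0.169 in those labelled WT, and that of Trib3 over Atf4 was 0.0164 and 0.0150 in the libraries labelled KO, against 0.0259 and 0.0360 in those labelled WT. Such ratios do not depend on the scaling of libraries.

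Genes around the members were read from 5 lists, of which none had a call by edgeR among its tested genes. Over all genes tested, 48.1% were positive and the median was −0.01. The labels stood apart with KO higher in 21.5% of them and with KO lower in 23.3%. The machinery of the integrated stress response holds the other eIF2 kinases, eIF2, its exchange factor and the phosphatase subunits. In it 12 of 17 tested genes were positive (70.6%) and the median log2 fold change was 0.10. The labels stood apart with KO higher in 6 (35.3%) and with KO lower in 3 (17.6%). Impact, an inhibitor of GCN2, had 22.3 and 24.9 CPM in the libraries labelled KO, against 17.9 and 16.7 CPM in those labelled WT (log2 fold change 0.45, adjusted p = 0.307 by edgeR). Ppp1cb and Ppp1ca, catalytic subunits of protein phosphatase 1, had log2 fold changes of 0.33 and −0.27, neither called. Ppp1cb rested on 1 library, labelled WT replicate 1 at 118 CPM: without it the log2 fold change was −0.05, and without labelled WT replicate 2 it was 0.86 (adjusted p = 0.0127 by edgeR).

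The list of other genes tied to ATF4 holds amino acid transporters and tRNA synthetases among others. Of its 33 tested genes 17 were positive (51.5%) and 16 negative, with a median of 0.01. The labels stood apart with KO higher in 7 (21.2%) and with KO lower in 10 (30.3%). Txnip, an inhibitor of glucose uptake that also binds thioredoxin, had 60.2 and 59.9 CPM in the libraries labelled KO, against 111 and 100.1 CPM in those labelled WT. Its log2 fold change was −0.82 (SE 0.12, adjusted p = 0.0623 by edgeR), and DESeq2 called it lower with an adjusted p of 0.000156. It passed in 5 of 12 alternatives, where its adjusted p ran from 0.000156 to 0.323 and its log2 fold change from −0.89 to −0.73. The calls without labelled WT replicate 1 (adjusted p = 0.0342 by edgeR) and 2 (adjusted p = 0.0141 by edgeR) stood beside none without labelled KO replicate 1 (adjusted p = 0.179 by edgeR) or 2 (adjusted p = 0.323 by edgeR). Fam129a, a stress-induced regulator of translation, and Bbc3, which encodes the death protein PUMA, had log2 fold changes of −0.54 and −0.55 (adjusted p = 0.3 and 0.539 by edgeR). Bbc3 overlapped between labels and rested on single libraries, at −0.23 and −0.96 without labelled KO replicate 1 and 2, and −0.10 and −0.90 without labelled WT replicate 1 and 2.

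Other enzymes and carriers of the folate cycle and of glycine had 15 of 24 positive and a median of 0.05. The labels stood apart with KO higher in 9 of the 24 (37.5%, against 21.5% of all genes tested) and with KO lower in 5 (20.8%, against 23.3%). The 3 with the largest absolute change among genes with a mean of at least 10 CPM are named next, none of them called. The lowest log2 fold change of the list, −1.29, belonged to a gene under that mean and was not called either. Fpgs, the folylpolyglutamate synthase, had a log2 fold change of 0.57, Slc25a32, the mitochondrial folate carrier, 0.46, and Slc19a1, the plasma membrane carrier of reduced folate, 0.45 (adjusted p = 0.288, 0.233 and 0.273 by edgeR). Slc25a32 had 73.8 and 78.6 CPM in the libraries labelled KO, against 53.3 and 57.6 CPM in those labelled WT. Fpgs passed in 1 of 12 alternatives, without labelled WT replicate 2 (0.85, adjusted p = 0.0334 by edgeR), and without labelled WT replicate 1 it was 0.34 (adjusted p = 0.373 by edgeR).

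Further enzymes of non-essential amino acids had 10 of 18 positive (55.6%) and a median of 0.04. The labels stood apart with KO higher in 7 (38.9%) and with KO lower in 4 (22.2%). Mpst, which moves sulfur from a derivative of cysteine, had a log2 fold change of −0.48, and Gclm, a subunit of the enzyme that starts glutathione synthesis, 0.39 (adjusted p = 0.344 and 0.489 by edgeR). The chaperone branch of the endoplasmic reticulum, which answers mainly to ATF6 and XBP1, had 15 of 21 positive (71.4%) and a median of 0.09. The labels stood apart with KO higher in 7 (33.3%) and with KO lower in 3 (14.3%). Its chaperone Hspa5 had 654 and 423 CPM in the libraries labelled KO, against 313 and 358 CPM in those labelled WT. That is a log2 fold change of 0.68 (SE 0.21, adjusted p = 0.258 by edgeR), which DESeq2 called higher with an adjusted p of 0.0326. Sel1l and Xbp1, of the same branch, had 0.39 and 0.34, not called. Both Hspa5 and Xbp1 leaned on labelled KO replicate 1, without which they were 0.33 (adjusted p = 0.588 by edgeR) and 0.09 (adjusted p = 0.919 by edgeR).

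Promoters were searched for the core of the CARE, the composite site of C/EBP and ATF factors at which ATF4 is known to act. Windows from 250 bases before to 50 after the start site (RefSeq, GRCm38.p6) were found for 32 of the 33 members, all but Cth. The letters searched were TGATGNAA on both strands. At least 1 match stood in 9 of the 32 members, or 28.1%. Some members have more than 1 window, and by window the share was 9 of 36, or 25%, beside 3.97% of all 32851 windows. The 9 were Asns, Atf3, Chac1, Got1, Nupr1, Pycr1, Slc7a11, Trib3 and Vldlr. The members were picked as ATF4 pathway genes, so this share is a description of the set. Stretches of 5 promoters are shown, 3 of members lower in both libraries labelled KO (Asns, Trib3, Ddit4), 1 of a member higher in both (Atf3) and 1 of a member with a match whose libraries overlapped between labels (Got1). RefSeq places the starts of Asns, Ddit4 and Atf3 inside the spans given above, and that of Trib3 outside its span. The stretches are printed 5′ to 3′ on the gene's strand, with matches to the CARE core on either strand in capitals. They end 30 bases past the RefSeq start site.
Asns (chr6:7693180-7693409, minus strand): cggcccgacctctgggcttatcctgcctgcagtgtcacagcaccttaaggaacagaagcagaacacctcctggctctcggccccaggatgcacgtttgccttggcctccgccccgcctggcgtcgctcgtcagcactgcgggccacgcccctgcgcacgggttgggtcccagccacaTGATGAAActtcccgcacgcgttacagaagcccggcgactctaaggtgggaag
Trib3 (chr2:152344031-152344260, minus strand): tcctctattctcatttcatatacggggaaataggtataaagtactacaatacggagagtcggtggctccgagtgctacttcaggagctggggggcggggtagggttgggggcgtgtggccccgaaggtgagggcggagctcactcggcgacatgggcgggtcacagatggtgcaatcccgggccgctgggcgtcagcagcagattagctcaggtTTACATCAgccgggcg
Ddit4 (chr10:59951741-59951970, minus strand): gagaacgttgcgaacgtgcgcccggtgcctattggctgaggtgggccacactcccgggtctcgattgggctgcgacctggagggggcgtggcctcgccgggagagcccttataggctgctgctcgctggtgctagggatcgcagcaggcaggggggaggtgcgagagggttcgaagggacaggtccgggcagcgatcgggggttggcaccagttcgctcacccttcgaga
Atf3 (chr1:191183304-191183533, minus strand): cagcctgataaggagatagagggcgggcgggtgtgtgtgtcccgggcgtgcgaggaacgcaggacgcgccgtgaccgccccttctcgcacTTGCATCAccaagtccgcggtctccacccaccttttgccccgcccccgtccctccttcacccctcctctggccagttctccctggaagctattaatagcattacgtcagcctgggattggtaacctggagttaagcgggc
Got1 (chr19:43524576-43524805, minus strand): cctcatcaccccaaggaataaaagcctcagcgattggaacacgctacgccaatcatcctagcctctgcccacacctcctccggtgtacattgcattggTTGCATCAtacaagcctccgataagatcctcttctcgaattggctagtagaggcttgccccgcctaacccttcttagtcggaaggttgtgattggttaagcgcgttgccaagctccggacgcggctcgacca

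The match in Asns reads TGATGAAA on the gene strand and begins at position −23, counted from the RefSeq start site as 0. It lies inside the span given above for Asns. In Trib3 a match of TGATGTAA lies on the other strand with its leftmost base at position 14. It follows the RefSeq start site but lies outside the span given above for Trib3. Atf3 and Got1 hold TGATGCAA on the other strand at −110 and −102, and Slc7a11 holds it on each strand, at −66 and −47. Ddit4 had no match in its window, and neither did Atf4, Phgdh, Psat1, Psph or the folate enzymes, which says only that these letters are not in these windows. The palindrome TGACGTCA, the site of CREB and ATF factors, stood in the window of Ppp1r15a and of no other member, beside 1.79% of all windows. The endoplasmic reticulum stress element ERSE, searched on both strands as well, stood in none of the members' windows and in 0.119% of all windows.

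**Figure D5:**
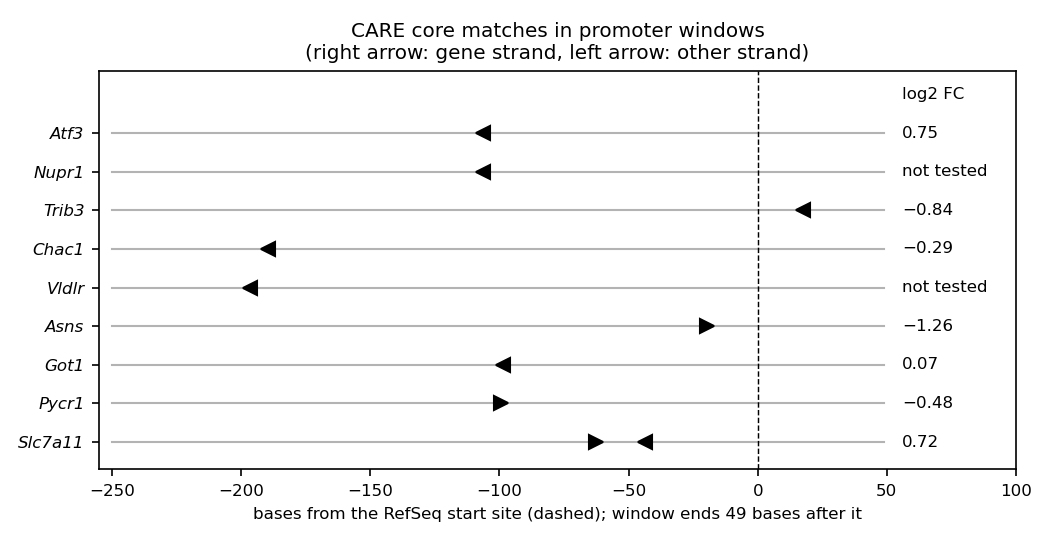
Positions of CARE core matches (x axis, bases from the RefSeq start site) in the promoter windows of the 9 members that hold one, with the log2 fold change (labelled KO minus labelled WT) of each at the right. Matches lie from −200 in Vldlr to 14 in Trib3, and the fold changes of genes with a match run from −1.26 to 0.75.

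Members with a CARE core lay on both sides of 0. Among the 7 tested members with a match, 4 were negative, 3 were positive and the median was −0.29 on the log2 scale. Among the 23 tested members with a window and no match, 11 were negative, 12 were positive and the median was 0.01. Over all tested genes with a window, the 235 with a match had a median of −0.01 and the 8771 without one a median of 0.00. Asns was the 1 gene with a match that was called.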

How the data were processed

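Counts and FPKM per gene were deposited by the authors for 2 libraries labelled KO and 2 labelled WT, per the file headers. The labels' protocols describe bead-purified mRNA and a stranded library kit, and the submitters' processing notes name kallisto and GRCm38, with no version. The sources used here do not give how counts were assigned or whether strand was used. FPKM divides the deposited counts by gene length and library total. The table also held 8 value columns that match no library used here, and these were left out. Columns were joined to libraries through the description codes, and groups follow the genotype field.

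Counts were tested in R 4.3.3 with edgeR 4.0.16 (filterByExpr by group, TMM, quasi-likelihood F test, two-sided), with Benjamini-Hochberg adjustment over all 13528 genes tested and a threshold of 0.05. CPM are scaled by TMM. Alternatives used DESeq2 1.42.0 and limma 3.58.1 on log2(FPKM + 1) or log2(FPKM + 0.1), other filters and scaling, replicate blocks, and each library left out. The fit was checked on simulated counts. Intervals are at 95%.

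Members and lists were chosen with earlier results of these data known. All members are described. From each pathway list, genes called were to be named, or, with none, up to 3 with the largest absolute log2 fold change among those with a mean of at least 10 CPM. A gene that this rule names is not reported here. The labels call the replicates biological but name no animals, so p-values measure the spread between these libraries.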

Additional observations from a re-analysis of the deposited data

How the results depend on the processing

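Of 372 values of members under alternatives, 344 kept direction and side of the threshold. The count of all genes past the threshold (28) was 28 with DESeq2's size factors in edgeR, 253 with DESeq2, 146 with no filter on low counts, 51 with a filter of at least 1 CPM in 2 libraries, 5 on log2(FPKM + 1), 4 on log2(FPKM + 0.1), and 8 to 304 with 1 library left out. The count of members past it (2) was 3 with DESeq2, 0 in both FPKM fits and 0 to 3 with 1 library left out. The replicate numbers share only a number: deviations of same-numbered libraries correlated at −0.177. With the replicate block 123 genes and 2 members passed, and with crossed pairs, an alternative chosen after seeing the data, 12 genes and 1 member passed.

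With 1 library left out, the median log2 fold change of members (0.01) ran from −0.15 to 0.12 and that of Ppm1k (0.97) from 0.73 to 1.24. Members that changed sign there were Cebpb (−0.27 to 0.46), Stc2 (−0.19 to 0.67), Phgdh (−0.32 to 0.12), Psat1 (−0.12 to 0.17), Psph (−0.43 to 0.18), Shmt2 (−0.34 to 0.088), Mthfd1l (−0.17 to 0.062), Mthfd2 (−0.014 to 0.37), Got1 (−0.11 to 0.28) and Aldh18a1 (−0.15 to 0.17). The cause was not tested. The other 21 members tested kept their sign in all 12 alternatives. With 1 library left out, the lone library is assumed to vary like the pair of the other label. With 2 libraries a label, the unresolved genotype labels and few counts in Slc7a11, Gadd45a, Nupr1 and Vldlr limit what can be read.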
